A study of Mus musculus with 12 samples.

Results

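The genes of ceramide, sphingomyelin and glycosphingolipid synthesis were followed in mural granulosa cells (MGCs) of the follicle wall and in the cumulus cells around the oocyte. They are 38 listed gene symbols whose rows had to be present in both expression tables. All 38 were found, among the 26382 genes that the tables share (29101 genes in the MGC table and 33137 in the cumulus cell table). RNA was sequenced from WT mice, of strain C57/BL6, and from Sphk1/2gc-/- mice. The latter are Sphk1-/-; Sphk2 fl/fl; Fshr-Cre: Sphk1 is missing from the whole body, and the floxed Sphk2 is removed where the promoter of the FSH receptor drives the Cre recombinase, in granulosa cells. Prepubertal females were primed with eCG and given hCG, which acts on the LH receptor, and cells were taken 2 h post-hCG. Each of the 4 groups had 3 libraries, numbered 1 to 3. The labels do not say whether libraries came from separate animals, so p-values measure the spread between libraries, which may be technical. The WT mice were purchased and the background of the crossed line is not given in the sources used here, so genotype and line cannot be told apart.

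Sphingolipids share a backbone that serine palmitoyltransferase builds from serine and a long-chain acyl-CoA at the endoplasmic reticulum. A reductase, a ceramide synthase and a desaturase turn it into ceramide, which is then given a headgroup to become sphingomyelin, ceramide 1-phosphate or glucosylceramide, the stem of the gangliosides. Ceramidases release sphingosine from ceramide, and the sphingosine kinases encoded by Sphk1 and Sphk2 phosphorylate it to sphingosine 1-phosphate (S1P), so the genes described here lie upstream of, or branch away from, the step that the knockout removes.

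The values are FPKM, fragments scaled to the length of the exons and to the number of fragments mapped, so that levels of different genes are compared per length. The tables gave 16100352 to 19761598 reads per library. Sphk1 was at 0.460 to 1.88 FPKM in WT MGCs and 0.104 to 0.557 FPKM in the libraries labelled Sphk1/2gc-/-, and at 0.0699 to 0.0954 and 0.0778 to 0.557 FPKM in cumulus cells. Sphk2 was at 5.18 to 5.86 and 4.51 to 6.29 FPKM in MGCs, and at 0.403 to 0.602 and 0.434 to 0.752 FPKM in cumulus cells. Both targeted genes overlapped between genotypes, and values over whole genes include exons outside the deleted part, so they do not check the labels. The libraries are therefore called WT and KO-labelled. KO-labelled MGC library 3 stood apart from the other MGC libraries, with correlations of 0.912 to 0.939 across 15279 genes. WT cumulus cell library 3 had 27541 genes above 0 FPKM, where the other cumulus cell libraries had 18788 to 19289. The cause of this was not tested. Granulosa cell markers were present in every group: all 10 listed genes, Foxl2, Fshr and Cyp19a1 among them, averaged at least 0.5 FPKM. Amh was near this limit in cumulus cells, at 0.112, 1.90 and 0.102 FPKM in WT, against 2.16, 0.182 and 0.468 FPKM in KO-labelled libraries. In MGCs it was at 87.3 to 226 FPKM. In WT 7 of the 10 were lower in cumulus cells than in MGCs and 2 higher, where 52.5% of all genes were lower and 24.1% higher. The 4 genes of cumulus expansion were split between the cell types in WT. Has2 (12.7 to 18.3 FPKM in MGCs, 31.9 to 74.6 FPKM in cumulus cells) and Ptx3 (44.2 to 54.6 and 91.3 to 218 FPKM) were higher in every cumulus cell library, and of these Has2 passed the test. Tnfaip6 and Ptgs2 had higher levels in MGCs and carried the sum of the 4, 1077 to 1372 FPKM in MGCs and 309 to 702 FPKM in cumulus cells, and of these Tnfaip6 passed.

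Most of the pathway was expressed in both cell types, and 1 or a few members led each step (the heat map of levels by library). In WT MGCs 28 of the 38 genes averaged at least 0.5 FPKM, and in WT cumulus cells 25 did. The sequence of levels in WT MGCs began with St3gal5, the sialyltransferase that makes the ganglioside GM3, at 301 ± 80.1 FPKM (SD, n = 3). Cers5, a ceramide synthase, followed at 99.7 ± 22.6 FPKM, then Cers2 at 45.6 ± 4.35 FPKM. In WT cumulus cells Cers5 came highest at 142 ± 27.3 FPKM, ahead of St3gal5 at 80.7 ± 12.3 FPKM and of Degs1, which desaturates dihydroceramide, at 73.2 ± 6.76 FPKM. St3gal5 and Degs1 did not differ beyond their spread there, with 69.0 to 93.6 and 68.4 to 81.0 FPKM. Sptlc3, Sptssb, Degs2, Fa2h, Smpd3, Acer1 and Ugt8a averaged under 0.5 FPKM in all 4 groups and were not tested. Of these, Sptlc3 and Acer1 had 0 to 3 reads in each of the 12 libraries.

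**Figure D1:**
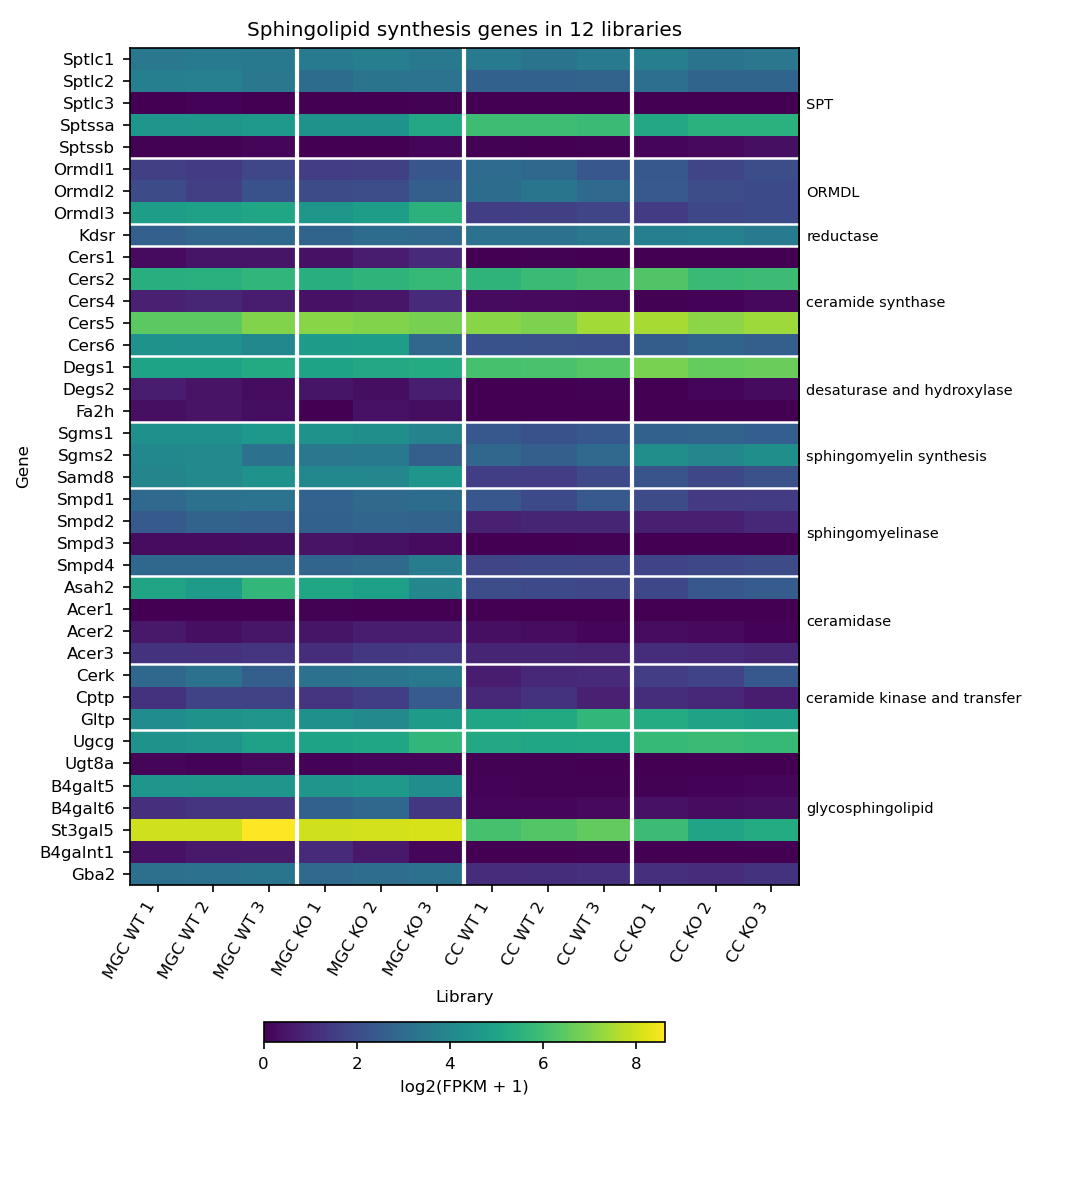
Levels of the 38 genes, as log2(FPKM + 1), in each of the 12 libraries, with genes in rows grouped by their step and libraries in columns (CC, cumulus cells; KO, libraries labelled Sphk1/2gc-/-). St3gal5 and Cers5 are brightest, and B4galt5 is bright in the 6 MGC libraries and dark in the 6 cumulus cell libraries.

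In cumulus cells 8 of the 25 genes tested differed between genotypes, and they belong to different steps. Genes higher in the KO-labelled libraries were Sgms2, Cerk, Ugcg, Degs1 and Cers6, and genes lower there were Ormdl2, St3gal5 and Sptssa. Of the 6 genes that add a headgroup to ceramide, Sgms2, Cerk and Ugcg passed, Sgms1 and Samd8 did not and Ugt8a was not tested. Ormdl2 and Sptssa encode a regulator and a subunit of serine palmitoyltransferase. The test was limma on log2(FPKM + 1), and a gene was called where its p, adjusted by Benjamini-Hochberg across every gene tested, was at most 0.05. By the same rule 22.3% of all 12205 genes tested were called (9.66% higher and 12.7% lower), against 32.0% of these members, so the count lies near the background. The median log2 fold change of the 25 members was 0.15, and that of all genes tested was -0.06. No overlap between genotypes was seen for 12 of the 25 genes, and for 42.3% of all genes tested. Only Sgms2 also passed a 2-fold limit on log2(FPKM + 1), which 8.04% of all genes tested did. Adding 1 FPKM shrinks the changes of low genes. Cerk and Ormdl2, at log2 fold changes of 0.99 and -0.99, fell just short of the limit. Their ratios of mean FPKM, KO-labelled to WT, were 3.19 and 0.440.

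**Figure D2:**
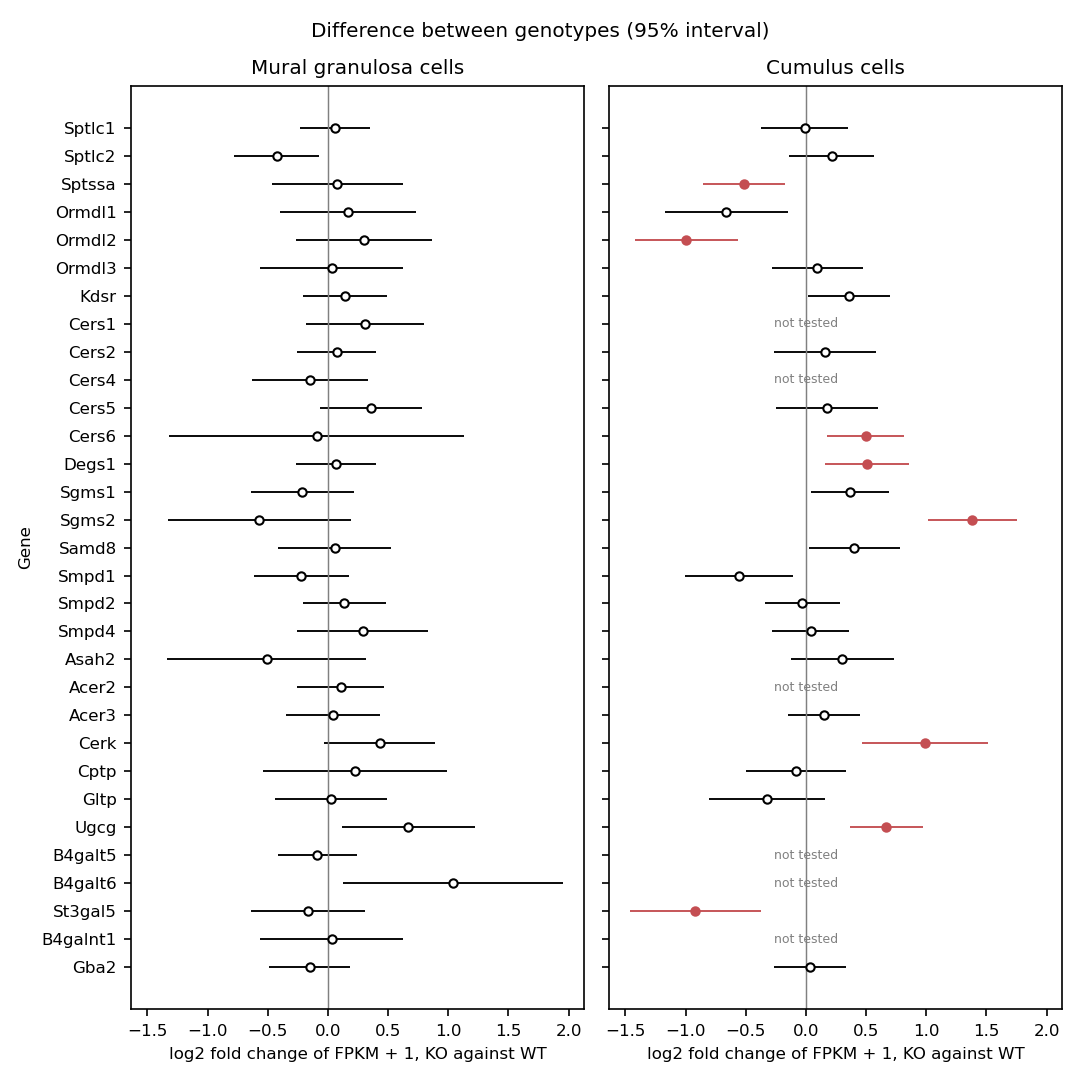
Log2 fold change of FPKM + 1 between KO-labelled and WT libraries for the 31 genes tested in MGCs (left) and the 25 tested in cumulus cells (right), with 95% intervals from limma. Filled red points passed the adjusted test: 0 in MGCs and 8 in cumulus cells.

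Among the genes of sphingomyelin synthesis, Sgms2, which encodes the sphingomyelin synthase of the plasma membrane and Golgi, was higher in KO-labelled cumulus cells (GRCm38 chr3:131318985-131491411, minus strand). It was at 6.19, 5.14 and 6.65 FPKM in the WT libraries, against 18.3, 14.7 and 18.8 FPKM in KO-labelled ones. Every KO-labelled library lay above every WT library, and the means were 5.99 ± 0.775 and 17.3 ± 2.19 FPKM, a ratio of 2.88. The log2 fold change was 1.38 (SE 0.16, adjusted p = 0.00172), and the call held in all 14 alternative settings run on it. Sgms1, the Golgi sphingomyelin synthase, was at 4.20, 3.53 and 4.22 FPKM in WT, against 5.46, 5.72 and 5.02 FPKM in KO-labelled libraries. The groups of Sgms1 did not overlap either, but its log2 fold change of 0.36 (SE 0.14) did not pass (adjusted p = 0.0975). Samd8, which makes the ethanolamine analogue of sphingomyelin, had a log2 fold change of 0.40 (SE 0.16, adjusted p = 0.110). Sgms2 made up 49.1% ± 0.720 (SD, n = 3) of the summed FPKM of these 3 genes in WT cumulus cells and 66.4% ± 2.73 in KO-labelled ones, while the sum went from 12.2 ± 1.49 to 25.9 ± 2.41 FPKM.

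Upstream sequences are shown for 3 of the 8 genes, so that the starts of genes that moved in opposite directions can be compared. Sgms2 had the largest log2 fold change of FPKM + 1, and Ormdl2 and St3gal5 the 2 largest falls. By the ratio of mean FPKM, Cerk rose more than Sgms2 (3.19 against 2.88). They are from RefSeq (GRCm38.p6), 5′ to 3′ on the strand of the gene, and end at the base before the start of transcription or before an annotated exon. For Sgms2, with 6 starts listed, the most upstream was taken. The windows are chr3:131491444-131491693 (minus) for Sgms2, chr10:128821646-128821879 (minus) for Ormdl2 and chr6:72097358-72097591 (plus) for St3gal5. Capitals mark the letters of 5 motifs on either strand: TGACG (the core of a cAMP response element), AAGGTCA (NR5A receptors), GGGCGG (a GC box), CCAAT, and TCACNCCAC (a sterol regulatory element).
Sgms2: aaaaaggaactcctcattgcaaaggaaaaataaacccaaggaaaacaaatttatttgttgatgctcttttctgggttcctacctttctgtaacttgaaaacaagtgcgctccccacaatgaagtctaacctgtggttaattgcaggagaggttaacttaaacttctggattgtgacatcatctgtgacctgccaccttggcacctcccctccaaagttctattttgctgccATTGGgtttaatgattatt
Ormdl2: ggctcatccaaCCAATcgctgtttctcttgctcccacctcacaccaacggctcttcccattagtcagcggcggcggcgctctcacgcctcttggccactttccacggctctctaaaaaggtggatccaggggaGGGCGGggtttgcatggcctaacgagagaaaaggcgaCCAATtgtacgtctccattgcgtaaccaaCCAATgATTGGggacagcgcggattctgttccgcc
St3gal5: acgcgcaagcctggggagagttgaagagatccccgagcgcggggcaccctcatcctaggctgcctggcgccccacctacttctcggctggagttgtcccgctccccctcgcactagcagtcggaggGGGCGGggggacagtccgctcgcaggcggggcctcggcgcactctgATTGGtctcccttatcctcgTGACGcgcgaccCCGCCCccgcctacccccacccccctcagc
The Ormdl2 window held 4 matches of CCAAT, of which the third and the fourth, on opposite strands, are separated by a single base, and the windows of Sgms2 and St3gal5 held 1 each. A GC box was matched 1 time in the Ormdl2 window and 2 times in that of St3gal5, and TGACG was matched in the St3gal5 window only. CCAAT is common: over the 250 bases before the start, 34.5% of 27025 genes had at least 1 match, as had 12 of the 34 members whose windows were searched. GC boxes were matched in 33.0% of all genes and in 25 of the 34 members, TGACG in 17.8% and in 6, AAGGTCA in 4.04% and in 1, and TCACNCCAC in 1.03% and in 0. These matches describe letters, and binding was not measured.

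Genes of the glycosphingolipid branch moved in both directions in cumulus cells. Ugcg (chr4:59189257-59222833, plus strand) encodes glucosylceramide synthase, the entry to the branch. It was at 36.0, 33.3 and 34.1 FPKM in WT libraries, against 54.0, 57.9 and 54.3 FPKM in KO-labelled libraries. The groups were far apart for their spread, at 34.5 ± 1.34 and 55.4 ± 2.15 FPKM, and the log2 fold change was 0.67 (SE 0.13, adjusted p = 0.0111). Without WT library 2 the adjusted p was 0.0577. St3gal5 (chr6:72097592-72154571, plus strand) adds sialic acid to lactosylceramide. It was at 69.0, 79.6 and 93.6 FPKM in WT, against 59.2, 32.1 and 38.5 FPKM in KO-labelled libraries, so that all KO-labelled libraries were lower and library 1 lay close to the WT range. Its log2 fold change was -0.92 (SE 0.24, adjusted p = 0.0279). The step between them, the addition of galactose by B4galt5 and B4galt6, was near the limit of detection. B4galt5 was at 0.0577, 0.0258 and 0.0264 FPKM in WT cumulus cells, against 0.0370, 0.0705 and 0.121 FPKM in KO-labelled ones, which is 2 to 10 reads per library. B4galt6 was at 0.0749, 0.115 and 0.176 FPKM in WT, against 0.338, 0.209 and 0.269 FPKM in KO-labelled libraries (7 to 37 reads). The B4galt6 groups did not overlap, but both genes were below the filter of 0.5 FPKM and were not tested. B4galnt1, which makes GM2 from GM3, had 0 to 2 reads per library. Gba2, the non-lysosomal glucosylceramidase, was level at 1.204 ± 0.0954 and 1.26 ± 0.116 FPKM (log2 fold change 0.04, SE 0.13, adjusted p = 0.865).

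Cerk (chr15:86139128-86186141, minus strand), the kinase that makes ceramide 1-phosphate, was low in WT cumulus cells. The WT libraries held 0.581, 1.01 and 1.06 FPKM, against 1.95, 2.37 and 4.15 FPKM in KO-labelled libraries. Every KO-labelled library was above every WT library, with a wide spread among the former, and the log2 fold change was 0.99 (SE 0.23, adjusted p = 0.0183). Without WT library 1 its adjusted p was 0.0726. Among the transfer proteins, Cptp, which carries ceramide 1-phosphate, had a log2 fold change of -0.08 (SE 0.18, adjusted p = 0.779), and Gltp, which carries glucosylceramide, one of -0.32 (SE 0.21, adjusted p = 0.299). Both overlapped between genotypes.

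At the start of the pathway, Sptssa and Ormdl2 were lower in KO-labelled cumulus cells, and the other genes of the serine palmitoyltransferase complex did not pass or were not tested. Sptssa, the small activating subunit, was at 61.2, 61.2 and 57.8 FPKM in WT, against 36.3, 45.0 and 44.3 FPKM in KO-labelled libraries, with no overlap. Its log2 fold change was -0.52 (SE 0.15, adjusted p = 0.0397). Of the large subunits, Sptlc1 had a log2 fold change of -0.01 (SE 0.16, adjusted p = 0.974) and Sptlc2 one of 0.21 (SE 0.15, adjusted p = 0.348). Sptlc2 was at 5.39 to 5.70 FPKM in WT and 5.94 to 7.88 FPKM in KO-labelled libraries, without overlap. Sptssb, the alternative small subunit, had 1, 0 and 1 reads in WT and 3, 6 and 10 reads in KO-labelled libraries, too few to test. The 3 ORMDL proteins hold the enzyme back when ceramide is plentiful. Ormdl2 (chr10:128817902-128821645, minus strand) was at 7.29, 9.23 and 6.72 FPKM in WT, against 4.32, 3.09 and 2.81 FPKM in KO-labelled libraries. The groups did not overlap, the means were 7.74 ± 1.32 and 3.41 ± 0.805 FPKM, and the log2 fold change was -0.99 (SE 0.19, adjusted p = 0.00872), a call that held in all 14 alternative settings. Ormdl1 was at 7.00, 6.36 and 4.12 FPKM in WT, against 4.24, 2.48 and 3.17 FPKM in KO-labelled libraries, which overlapped (log2 fold change -0.66, SE 0.22, adjusted p = 0.0651). Ormdl3 had a log2 fold change of 0.10 (SE 0.17, adjusted p = 0.705). Summed, the 3 ORMDL genes were at 15.8 ± 2.25 FPKM in WT as compared with 9.16 ± 1.10 FPKM in KO-labelled cumulus cells.

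Exons of Ormdl2 overlap those of Dnajc14 on the opposite strand over 1114 bases, 66.7% of its exon length, and the library kit does not mark strand, so reads there cannot be assigned to either gene. Dnajc14 was at 0.682 to 0.848 FPKM in WT as compared with 1.02 to 1.03 FPKM in KO-labelled cumulus cells. Its log2 fold change in cumulus cells was 0.21 (SE 0.13, adjusted p = 0.257), and its level lay below that of Ormdl2. In MGCs the order was the reverse, with Dnajc14 at 6.83 to 9.19 FPKM and Ormdl2 at 2.07 to 5.14 FPKM. How much of the Ormdl2 value in MGCs came from Dnajc14 was not tested, and this touches each value given below that uses Ormdl2 in MGCs.

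Of the genes that turn the backbone into ceramide, Degs1 and Cers6 were higher in KO-labelled cumulus cells. Degs1 was at 68.4, 70.3 and 81.0 FPKM in WT, against 117, 94.8 and 102 FPKM in KO-labelled libraries (log2 fold change 0.51, SE 0.15, adjusted p = 0.0460). Cers6, a ceramide synthase that prefers palmitoyl-CoA, was at 3.48, 3.43 and 3.31 FPKM in WT, against 4.77, 5.85 and 5.08 FPKM in KO-labelled libraries (log2 fold change 0.50, SE 0.14, adjusted p = 0.0368). Neither gene overlapped between genotypes. Cers5 and Cers2, which led the family, had log2 fold changes of 0.18 (SE 0.18, adjusted p = 0.520) and 0.16 (SE 0.18, adjusted p = 0.557). Kdsr, the reductase of the second step, had one of 0.36 (SE 0.15) without overlap, and did not pass (adjusted p = 0.116). Cers1 had 0 to 2 reads per library, and Cers4 was at 0.139 to 0.203 FPKM in WT as compared with 0.0260 to 0.128 FPKM in KO-labelled libraries.

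None of the sphingomyelinases and ceramidases tested in cumulus cells passed. Smpd1, the acid sphingomyelinase of lysosomes, was at 4.02, 2.87 and 4.28 FPKM in WT, against 2.96, 1.77 and 1.92 FPKM in KO-labelled libraries (log2 fold change -0.56, SE 0.20, adjusted p = 0.0731). Smpd2, Smpd4 and Acer3 had log2 fold changes of -0.03, 0.04 and 0.15, and Asah2, the neutral ceramidase, one of 0.30 (SE 0.19, adjusted p = 0.270). Asah1, the acid ceramidase, is not a member and did not pass either (log2 fold change -0.37, SE 0.16, adjusted p = 0.127). Its groups did not overlap, at 39.3 to 49.5 FPKM in WT as compared with 29.4 to 36.6 FPKM in KO-labelled libraries. Acer2 was at 0.103 to 0.286 FPKM in WT as compared with 0.0583 to 0.230 FPKM in KO-labelled libraries and was not tested.

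**Figure D3:**
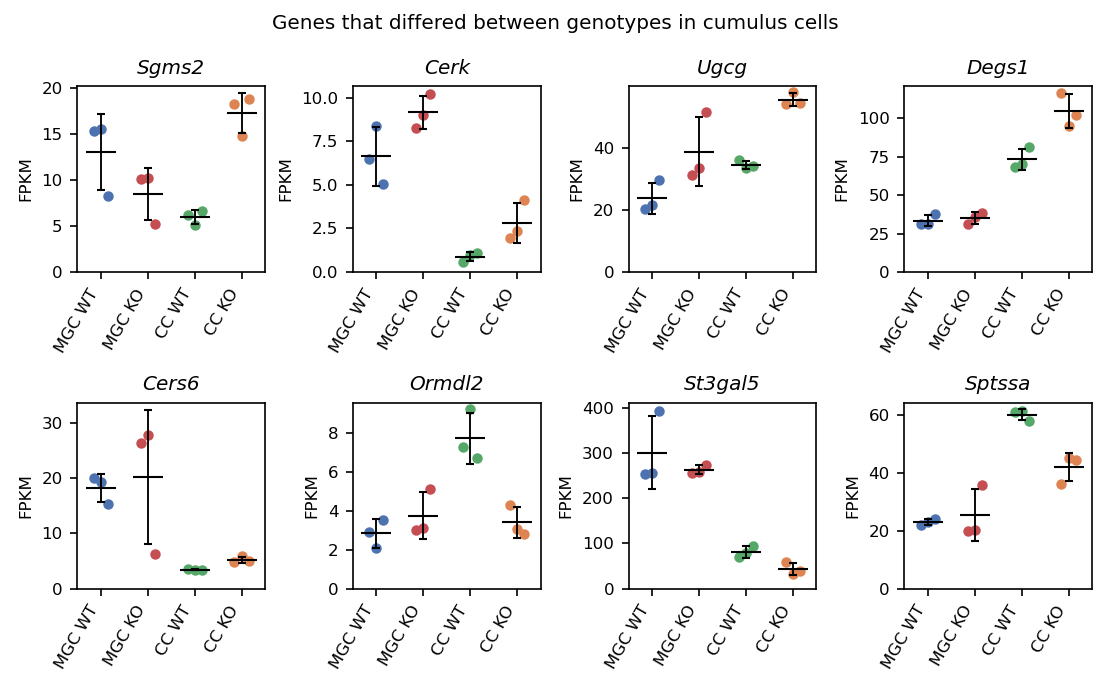
FPKM of the 8 genes called in cumulus cells, 1 panel per gene, in each library of the 4 groups (points), with the mean and SD of 3 libraries (black). Sgms2 in KO-labelled cumulus cells (14.7 to 18.8 FPKM) lies above WT cumulus cells (5.14 to 6.65 FPKM), whereas in MGCs the genotypes overlap.

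Some of these calls were near the threshold. Sptssa, Cers6, Degs1 and St3gal5 were called in 4, 6, 7 and 7 of the 14 alternative settings, and in each case the fold change kept its sign. Each of the 4 was lost without any 1 of the 3 WT libraries and without KO-labelled library 2 or 3, at adjusted p of 0.0577 to 0.155 over those fits, and each was also lost with the replicate number as a block (adjusted p = 0.0599 to 0.0945). Other genes moved with genotype in the same libraries, and their part in the results was not tested. Of 10 granulosa cell markers 6 were lower, with a summed level of 4007 to 5186 FPKM in WT as compared with 2738 to 3103 FPKM in KO-labelled cumulus cells. The 4 genes of cumulus expansion summed to 309 to 702 and 1077 to 1332 FPKM, and 2 of the 4 were higher. Lhcgr and Cyp11a1, which mark MGCs, were both lower, at sums of 13.6 to 35.0 and 3.26 to 7.82 FPKM. The 9 macrophage markers summed to 2.95 to 38.6 and 11.9 to 73.0 FPKM, with 4 of 6 tested higher. Sums of the 7 neutrophil markers were 2.94 to 19.5 and 0.150 to 0.535 FPKM, those of 5 erythrocyte markers 4.37 to 26.8 and 0.300 to 1.78 FPKM, those of 5 theca markers 27.2 to 59.4 and 13.4 to 17.9 FPKM, and those of 12 oocyte markers 4.32 to 8.14 and 2.74 to 2.91 FPKM. Insl3, Elane and Hba-a2 had no value in the cumulus cell libraries used here and entered their sums as 0, and Ly6g, Mpo and Csf3r were listed at 0 in the 3 KO-labelled ones. In such bulk samples fewer cells of a type and less RNA per cell cannot be told apart.

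In MGCs none of the 31 genes tested passed the adjusted test, by which 0.0393% of all 15279 genes were called. With the p left unadjusted, 3 of the 31 passed 0.05, as did 1406 of all genes, and limma-voom on the rebuilt reads also called 0. The 3 are Sptlc2, Ugcg and B4galt6, and they are the members whose genotypes did not overlap, where 16.9% of all genes did not. Ugcg gave 20.2, 21.5 and 29.5 FPKM in the WT MGCs, against 31.3, 33.5 and 51.5 FPKM in KO-labelled ones, so that each KO-labelled library lay above each WT library (log2 fold change 0.67, SE 0.23, adjusted p = 0.463). B4galt6 was at 1.26, 1.52 and 1.55 FPKM in WT, against 5.36, 6.54 and 1.65 FPKM in KO-labelled MGCs. Libraries 1 and 2 were high and library 3 was at the WT level (log2 fold change 1.04, SE 0.39, adjusted p = 0.490). Without KO-labelled library 3 its log2 fold change was 1.504 (adjusted p = 0.0105). Sptlc2, the catalytic subunit of serine palmitoyltransferase, was at 12.1, 12.6 and 10.0 FPKM in WT, against 7.36, 9.01 and 8.74 FPKM in KO-labelled MGCs (log2 fold change -0.43, SE 0.15, adjusted p = 0.463). Library 3 also stood apart for Cers6, which held 19.99, 19.3 and 15.3 FPKM in WT, against 26.4, 27.8 and 6.25 FPKM in KO-labelled libraries. The other 28 members tested had log2 fold changes from -0.57 (Sgms2) to 0.43 (Cerk), and their genotypes overlapped.

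Without library 3 of both genotypes, 6 of 29 members tested in MGCs were called, where 16.1% of all genes were. Cers5, Cers6, Ugcg and B4galt6 were then higher, with log2 fold changes of 0.59, 0.44, 0.61 and 1.54, and Sptlc2 and Sgms2 were lower, at -0.55 and -0.56. Across all 6 libraries, St3gal5 was at 301 ± 80.1 FPKM in WT as compared with 263 ± 10.2 FPKM in KO-labelled MGCs (log2 fold change -0.17, 95% interval -0.64 to 0.30), and B4galt5 at 21.9 to 22.7 and 17.7 to 23.7 FPKM (-0.09, -0.42 to 0.24). Asah2 was at 31.7, 25.8 and 51.2 FPKM in WT, against 32.9, 28.0 and 15.1 FPKM in KO-labelled libraries (-0.51, -1.33 to 0.32). The same library 3 had the lowest summed level of 5 theca markers (64.9 FPKM, 137 to 222 FPKM in WT), of 9 macrophage markers (26.9 FPKM, 52.2 to 151 FPKM in WT) and of the 4 genes of cumulus expansion (187 FPKM) among MGC libraries, and the part of this in the values of library 3 was not tested. The 7 neutrophil markers summed to 132 to 200 FPKM in WT as compared with 7.01 to 32.8 FPKM in KO-labelled MGCs, with 0 of 5 tested called, and their part in the MGC values was not tested either.

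The genotype difference itself differed between the cell types for Sgms2 and Ormdl2, 2 of the 31 members tested in a model of all 12 libraries, where 3.93% of all 15869 genes did. Sgms2 gave 15.3, 15.5 and 8.30 FPKM in the WT MGCs, against 10.1, 10.2 and 5.17 FPKM in KO-labelled ones, which overlapped and did not pass (log2 fold change -0.57, SE 0.32, adjusted p = 0.646). In cumulus cells it was higher, and the difference of the fold changes was 1.95 (SE 0.37, adjusted p = 0.0207). Ormdl2 was at 2.90, 2.07 and 3.55 FPKM in WT, against 3.04, 3.11 and 5.14 FPKM in KO-labelled MGCs (log2 fold change 0.30, SE 0.24), and the difference of the fold changes was -1.29 (SE 0.31, adjusted p = 0.0399), with the overlap with Dnajc14 in both cell types. The Sgms2 call was lost without WT MGC library 1 or 2, WT cumulus cell library 1 or 2, or KO-labelled cumulus cell library 3 (adjusted p = 0.0535 to 0.0678). The Ormdl2 call was lost without WT MGC library 1 or 2, any WT cumulus cell library, or KO-labelled cumulus cell library 2 or 3 (adjusted p = 0.0550 to 0.109). Both kept their sign. For Ugcg the fold changes were 0.67 in both cell types, and the interval of their difference was -0.59 to 0.59. For St3gal5 the difference was -0.75 (95% interval -1.47 to -0.04, adjusted p = 0.204). The model sets values of separate tables side by side, so table and cell type cannot be told apart.

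Between the cell types nearly the whole pathway differed, as most genes did. In WT 27 of the 31 genes tested differed between cumulus cells and MGCs, 8 higher and 19 lower in cumulus cells, where 76.6% of all 15869 genes were called (24.1% higher, 52.5% lower). With a 2-fold limit 16 members and 48.7% of all genes were called. Of the 31, 6 (Acer2, B4galnt1, B4galt5, B4galt6, Cers1 and Cers4) passed the filter on low values in MGCs alone, so that a lower level in cumulus cells follows from the filter, and 5 of these are among the 19. Of the 25 that passed in both cell types 8 were higher and 14 lower in WT, and 7 higher and 12 lower in KO-labelled libraries. The shares of all genes given here include genes that passed in 1 cell type alone. The share among all genes that passed in both was not computed, so the split of the 25 has no matching background. The median log2 difference, cumulus cells minus MGCs, was -0.58 for the members and -0.54 for all genes. That shift depends on the scale, since it was -0.03 after quantile normalization, -0.16 with median-of-ratios size factors and -0.96 with a pseudocount of 0.1 FPKM. The split into higher and lower members was 9 and 11 after quantile normalization and 10 and 15 with size factors. Among KO-labelled libraries 25 of 31 were called (7 higher, 18 lower), where 73.4% of all genes were (22% higher, 51.3% lower), with 14 members and 45.1% of all genes at the 2-fold limit, and the splits were 9 and 13 and 12 and 15. Differences are therefore also given relative to the median of all genes.

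**Figure D4:**
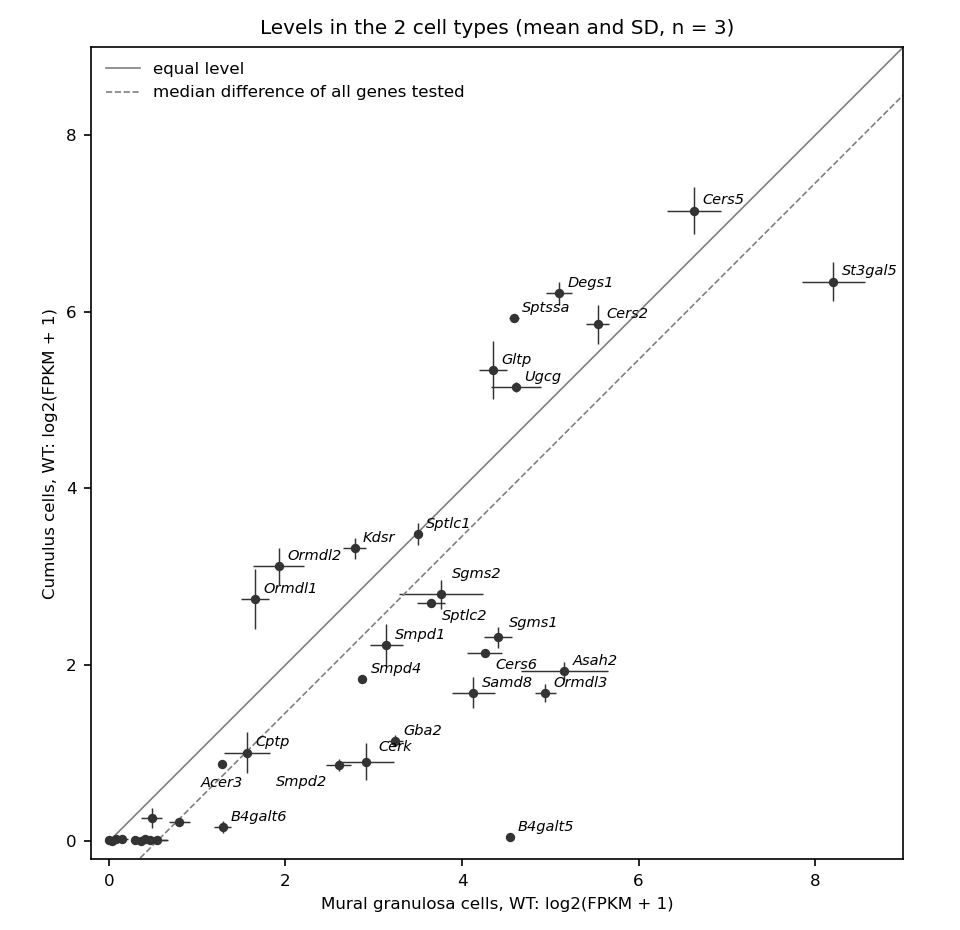
Mean log2(FPKM + 1) of the 38 genes in WT cumulus cells against WT MGCs, with the SD of 3 libraries as bars. The solid line is an equal level and the dashed line the median difference of all genes tested (-0.54). B4galt5 lies at the bottom right (its level in cumulus cells is below the filter), and Sptssa, Degs1, Gltp, Ormdl1 and Ormdl2 lie above the solid line.

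Of the genes of the later steps of ganglioside synthesis, only St3gal5 passed the filter in both cell types, and it was higher in MGCs. B4galt5 (chr2:167298444-167349183, minus strand), the main lactosylceramide synthase, gave 21.9, 22.7 and 22.1 FPKM in the WT MGCs, and the WT cumulus cell libraries held 8 reads of it in all, against 4806 in the MGCs. At the depth of the libraries the ratio of MGCs to cumulus cells was 619 (95% exact interval 314 to 1434, counting error only), and 274 (175 to 456) in KO-labelled libraries. The gene passed the filter through MGCs alone, so these values are a description. Among 2339 genes at 20 FPKM or more in WT MGCs, 8, B4galt5 itself included, were at or below its level in WT cumulus cells. In WT cumulus cells 72 of the 2339 (3.08%) were below 0.5 FPKM. St3gal5 was lower in cumulus cells by a log2 difference of -1.87 (SE 0.23, adjusted p = 1.34e-05, relative -1.32) and Gba2 by -2.10 (relative -1.56). B4galt6, which likewise passed in MGCs alone, had 421 reads in WT MGCs and 37 in WT cumulus cells. Of the branch's genes that were called, Ugcg was the one higher in cumulus cells, at 0.54 (SE 0.19, adjusted p = 0.0214, relative 1.08). Psap, which encodes the saposins that lysosomes of every cell use to break down sphingolipids, was likewise at 329 to 381 FPKM in WT MGCs and 1.90 to 2.70 FPKM in WT cumulus cells (log2 difference -6.77). The cause of so low a level of a gene that every cell uses was not tested, nor was whether the tables were made alike in every respect. Both touch every value set between the cell types here, the ratio for B4galt5 and the shares of families included.

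The ORMDL family differed in make-up between the tables of the cell types. Ormdl3 was at 27.3 to 32.3 FPKM in WT MGCs and 2.05 to 2.48 FPKM in WT cumulus cells, a log2 difference of -3.26 (SE 0.22, adjusted p = 7.62e-08, relative -2.72). Ormdl1 and Ormdl2 were higher in cumulus cells, by 1.09 (SE 0.24, adjusted p = 0.00126) and 1.19 (SE 0.22, adjusted p = 0.000311). Ormdl3 made up 85.7% ± 2.39 of the summed FPKM of the family in WT MGCs and 14.4% ± 3.69 in WT cumulus cells, where Ormdl2 took the largest share with 49.1% ± 3.94. Serine palmitoyltransferase differed by subunit as well. Sptssa was at 22.1 to 24.1 FPKM in WT MGCs and 57.8 to 61.2 FPKM in WT cumulus cells (log2 difference 1.34, SE 0.19, adjusted p = 5.06e-05). Sptlc1 was alike at 10.3 ± 0.266 and 10.2 ± 0.965 FPKM, and Sptlc2 was lower in cumulus cells (-0.95, SE 0.15, adjusted p = 8.25e-05, relative -0.41). The difference of Sptlc1, -0.02, became 0.66 with size factors.

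Ceramide synthesis was led by Cers5 and Cers2 in both cell types, and Cers6 was higher in MGCs. Cers6 was at 15.3 to 19.99 FPKM in WT MGCs and 3.31 to 3.48 FPKM in WT cumulus cells (log2 difference -2.12, SE 0.40, adjusted p = 0.00044, relative -1.57). It held 11.4% ± 2.96 and 1.71% ± 0.293 of the family's summed FPKM, while Cers5 held 60.2% ± 4.43 and 69.9% ± 3.45. The direction of Cers5 depends on scale, with a log2 difference of 0.52 (adjusted p = 0.0247) and of -0.03 after quantile normalization. Degs1 was higher in cumulus cells by 1.11 (SE 0.14, adjusted p = 1.64e-05) and Kdsr by 0.54 (SE 0.14, adjusted p = 0.00328).

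The genes that use or release ceramide were mostly lower in cumulus cells. Sgms1 (-2.09, relative -1.55), Samd8 (-2.44, relative -1.90) and Cerk (-2.01, relative -1.47) were lower, as was Sgms2 (-0.96, SE 0.26, adjusted p = 0.0055, relative -0.42). In KO-labelled libraries Sgms2 was the other way round, at 0.99 (SE 0.26, adjusted p = 0.00489). Asah2 was at 36.2 ± 13.3 FPKM in WT MGCs and 2.82 ± 0.278 FPKM in WT cumulus cells (-3.23, SE 0.30, adjusted p = 9.93e-07, relative -2.69). It held 94.9% ± 1.25 of the summed FPKM of Asah2, Acer1, Acer2 and Acer3 in WT MGCs. That sum leaves out Asah1, the acid ceramidase, which is not a member. Asah1 lay above Asah2 in both cell types, at 73.6 to 106 FPKM in WT MGCs and 39.3 to 49.5 FPKM in WT cumulus cells. Smpd1, Smpd2 and Smpd4 had log2 differences of -0.92, -1.74 and -1.03, which are -0.37, -1.20 and -0.49 relative to the median. In WT the calls of Sgms2, Smpd1 and Smpd4 held in 13, 13 and 14 of 15 alternative settings. Acer3 had a log2 difference of -0.40 (adjusted p = 0.0136), which is 0.14 relative to the median and changed sign after quantile normalization. Cers4 was at 0.600 to 0.889 FPKM in WT MGCs and 0.139 to 0.203 FPKM in WT cumulus cells, and Cers1 and B4galnt1 were at 53 and 81 reads in all in WT MGCs and at 3 and 2 reads in WT cumulus cells. Cers2, Sptlc1, Acer2 and Cptp did not pass in WT. Gltp was higher in cumulus cells, by 0.99 (SE 0.21, adjusted p = 0.00107). For Sgms1, Asah2 and Smpd4 the annotated exon length did not return whole reads from the FPKM, so that their rebuilt reads are approximate. Exons of Smpd2 overlap those of Mical1 on the opposite strand over 20.3% of their length, and those of Cers1 overlap Gdf1 on the same strand over 42.5%.

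**Figure D5:**
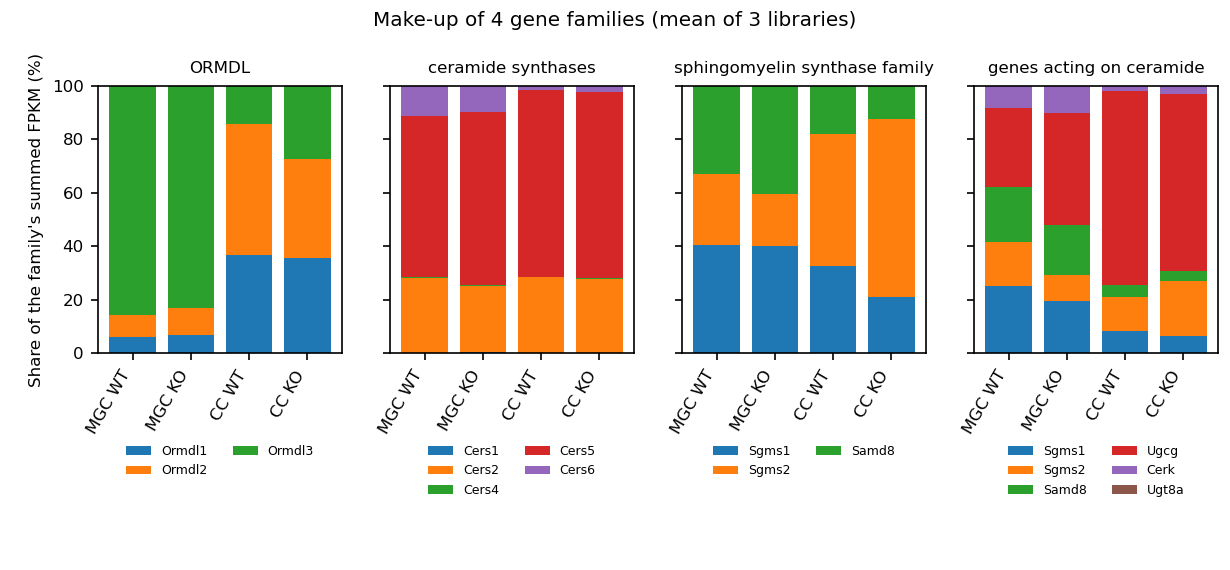
Share of each gene in the summed FPKM of its family, in percent, as the mean of 3 libraries in each of the 4 groups, for the ORMDL genes, the ceramide synthases, the sphingomyelin synthase family and the genes acting on ceramide. Ormdl3 takes 85.7% of the ORMDL sum in WT MGCs and 14.4% in WT cumulus cells, and Sgms2 takes 49.1% and 66.4% of its family in WT and KO-labelled cumulus cells.

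Of the genes that act on ceramide (Sgms1, Sgms2, Samd8, Ugcg, Cerk and Ugt8a), Ugcg was the largest in all 4 groups. It held 29.3% ± 4.25 of their summed FPKM in WT MGCs and 72.5% ± 2.20 in WT cumulus cells, and 41.8% ± 7.37 and 65.8% ± 3.13 in KO-labelled ones. The sum was at 47.6 ± 2.24 FPKM in WT as compared with 84.1 ± 1.30 FPKM in KO-labelled cumulus cells, and at 80.5 ± 5.499 and 91.5 ± 9.55 FPKM in MGCs.

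Markers of other cells differed between the cell types too, and their part was not tested. The 9 macrophage markers summed to 52.2 to 151 FPKM in WT MGCs and 2.95 to 38.6 FPKM in WT cumulus cells, with all 9 lower, and all 6 endothelial markers were lower, at sums of 12.8 to 16.6 and 0.276 to 0.962 FPKM. The 12 oocyte markers summed to 42.3 to 104 FPKM in MGCs and 4.32 to 8.14 FPKM in cumulus cells, and 9 of 10 tested were lower in cumulus cells. Within cumulus cells the filter on low values was passed by 6 of the 9 macrophage, 0 of the 6 endothelial and 4 of the 10 oocyte markers. The rest passed in MGCs alone, so that their lower level in cumulus cells follows from the filter.

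Among 52 other genes of sphingolipid metabolism, 34 were tested in cumulus cells and 7 were higher and 2 lower in the KO-labelled libraries, where 9.66% of all genes were higher and 12.7% lower. A4galt, which makes globotriaosylceramide, was at 2.06, 2.10 and 2.49 FPKM in WT, against 5.72, 4.89 and 9.05 FPKM in KO-labelled libraries (log2 fold change 1.196, SE 0.21, adjusted p = 0.00697). Plpp3, a lipid phosphatase that acts on S1P, was at 18.0, 8.52 and 13.1 FPKM in WT, against 24.0, 25.6 and 30.8 FPKM in KO-labelled libraries (1.02, SE 0.25, adjusted p = 0.0238). In MGCs 1 of 42 tested passed: Gm2a, the GM2 activator, was at 61.1, 41.6 and 64.6 FPKM in WT, against 11.5, 12.6 and 13.4 FPKM in KO-labelled libraries (log2 fold change -2.05, SE 0.19, adjusted p = 0.0413). In cumulus cells Gm2a was at 13.0, 12.2 and 19.6 FPKM in WT, against 10.0, 12.1 and 11.8 FPKM in KO-labelled libraries, and its genotype effect differed between the cell types by 1.70 (SE 0.28, adjusted p = 0.0135). The effect on Sgpp2, an S1P phosphatase, differed by 1.51 (SE 0.32, adjusted p = 0.0306).

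Of 28 genes that supply serine and acyl-CoA, 25 were tested in cumulus cells and 2 were higher and 6 lower in the KO-labelled libraries, beside the same shares of all genes. Dbi, which binds long-chain acyl-CoA, was at 286, 215 and 174 FPKM in WT, against 53.9, 68.2 and 63.2 FPKM in KO-labelled cumulus cells (log2 fold change -1.83, SE 0.21, adjusted p = 0.00148). The desaturases Scd1 and Scd2 were lower as well, at -1.57 (SE 0.16, adjusted p = 0.0011) and -1.04 (SE 0.17, adjusted p = 0.00537), as was Shmt2, a mitochondrial enzyme that uses serine, at -1.13 (SE 0.17, adjusted p = 0.00448). In MGCs 0 of 27 passed. The effect on Dbi differed between the cell types by -1.76 (SE 0.32, adjusted p = 0.0167). Between the cell types in WT, 31 of 42 other sphingolipid genes tested were lower in cumulus cells and 2 higher, and of the supply genes 17 of 27 were lower and 7 higher, where 52.5% of all genes were lower and 24.1% higher. In cumulus cells 34 of the 42 and 25 of the 27 passed the filter on low values. The rest passed in MGCs alone, so that their lower level in cumulus cells follows from the filter. These splits were not computed on another scale.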

How the data were processed

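RNA-seq values of 12 libraries, 3 in each of 4 groups by cell type and genotype, were taken as deposited. The authors deposited FPKM per gene, in 1 table per cell type. The submitters' processing notes name HISAT2 and GRCm38, and the counting tool and its settings are not given in the sources used here. The kit (NEBNext Ultra) does not mark strand. Columns left unused numbered 0. Gene names, exon lengths and positions were taken from the GENCODE annotation of GRCm38, which lacks 64 (MGC) and 66 (cumulus cell) listed IDs.

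Multiplied by exon length, FPKM gave whole reads (tolerance 0.02) for 90.2% to 91.6% of values per library, and so each library's reads (16100352 to 19761598) and the floor of 3 reads. Intervals on reads cover counting error only. Genes averaging 0.5 FPKM or more in any group compared were tested with limma 3.58.1 (R 4.3.3, variance trend) on log2(FPKM + 1), within each cell type, with Benjamini-Hochberg adjustment over all genes and a call at 0.05. This scale understates changes of low genes. Comparisons of cell types used 1 model of all 12 libraries. The labels do not say whether MGC and cumulus cell libraries came from the same animals. The model took them as independent, so a pairing across cell types, if there was one, was not used. The exon length fitted both tables for 90.7% of 16031 genes and both or neither for 99.7%, so the tables were treated as made with the same lengths. The limit set for this was 95% on the same length, and it is met by the second share and not by the first.

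The members and the gene lists were chosen with earlier results of these data known. All 38 members are accounted for. Of the other lists those genes are named that passed with at least a 2-fold change between genotypes or in the difference of genotype effects. Genes of these lists that differed between cell types are counted. Of the marker lists sums and counts are used, with single values for Has2, Ptx3 and Amh and test outcomes for genes of cumulus expansion. Psap, Asah1 and Amh were singled out after their values were seen. Same-numbered MGC libraries deviated together (r of 0.220, 0.158 and 0.224), and those of cumulus cells did not (-0.148, -0.051 and 0.115). Steps were tested on simulated data. Alternatives were another pseudocount, filters, scaling, limma-voom on reads, a 2-fold limit, a replicate block, a joint model and leaving out libraries. Upstream sequences came from a RefSeq promoter table. Python 3.11.15, scipy 1.17.1 and matplotlib 3.10.9 were used.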

Additional observations from a re-analysis of the deposited data

Results flagged for a closer look

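The genotype effect (log2, cumulus cells less MGCs) differed between the cell types for Sgms2, by 1.95 (adjusted p = 0.0207, limma), with every KO-labelled cumulus cell library above every WT one and overlapping MGC libraries. For Ormdl2 it differed by -1.29 (adjusted p = 0.0399), with lower values in the 3 KO-labelled cumulus cell libraries and an exon overlap with Dnajc14. For Sptlc2 the genotypes did not overlap in either cell type, with log2 fold changes of -0.43 in MGCs and 0.21 in cumulus cells, neither of which passed (adjusted p = 0.463 and 0.348). The difference of its effects was 0.64 and did not pass (adjusted p = 0.0986).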

How the results depend on the processing

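In cumulus cells the 8 members called became 1 with a 2-fold limit, 3 with no filter on low values and 4 with the replicate block, and 3 to 11 when 1 library was left out, with 3 without WT library 1 or 2. The labels do not say what same-numbered cumulus cell libraries share beside the number. Sgms2 and Ormdl2 stayed called in each of these but for Ormdl2 under the 2-fold limit. In MGCs the count of 0 became 6 without library 3 of both genotypes and 0 to 1 when 1 library was left out (1, B4galt6, without KO-labelled library 3), and the replicate block changed no call there. Cers6 in MGCs turned from -0.09 to 0.44 without library 3 of both genotypes. Between the cell types 27 (WT) and 25 (KO-labelled) became 16 and 14 with a 2-fold limit. The 2 differences of effects became 1 with no filter, 1 with limma-voom on reads and 4 without library 3 of both MGC genotypes, and 0 to 3 when 1 library was left out. The cause of these changes was not tested.

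After quantile normalization the difference between cell types turned to 0.37 for Sptlc1, 0.029 for Cers4, -0.026 for Cers5, 0.30 for Acer2 and 0.36 for Acer3 in WT, and to 0.39 for Sptlc1, 0.67 for Ormdl2, 0.089 for Acer2 and 0.43 for Acer3 in KO-labelled libraries. With size factors it turned to 0.66 for Sptlc1 in WT, and to 0.59 for Sptlc1, 0.34 for Sptlc2 and 0.48 for Ormdl2 in KO-labelled libraries. Of differences that did not pass, quantile normalization also turned Cers2 to -0.011 and Cptp to 0.23 in WT, and Cers5 to -0.17 in KO-labelled libraries. For members at 0 to 3 reads in a group the size of a difference could not be measured at this depth. Cers1 and B4galnt1 were such members in cumulus cells. They were called lower there than in MGCs, which follows from the filter.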
